A study of Mus musculus with 8 samples.

Results

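The 55 genes described here are the cell cycle and DNA replication genes of a table of read counts from sorted mouse neutrophils. They were taken by symbol from the 55450 rows of the table, as a fixed list of cyclins and cyclin-dependent kinases, replication licensing genes and mitotic genes. The list was chosen with earlier results of these data known, so shares of all genes beside its counts are no independent test. By function the 55 genes comprise 18 replication genes, 23 mitosis genes, 8 G1 cyclins and kinases, 4 transcription factors and 2 inhibitors of cyclin-dependent kinases. All 55 were found, and all 55 were among the 15975 genes with enough counts to be tested. Flow cytometry had divided the neutrophils by CD71, the receptor that takes up transferrin-bound iron. They came from mouse brain tumours, for which the labels give the glioma cell line SB28 as cell source, or from in vitro cultures in which neutrophils were generated from naive bone marrow. The 4 groups are tumour CD71+, tumour CD71-, culture CD71+ and culture CD71- neutrophils, with 2 libraries each. The labels give no strain, age, sex, treatment or culture time, and do not say if the libraries of a group are from separate mice or dishes. The p-values therefore reflect no more than how these libraries vary, which may be technical variation.

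A dividing cell duplicates its genome in S phase and separates the copies in mitosis. The MCM helicase is loaded on origins by CDC6 and CDT1 and is started by S phase kinases, and the E2F factors switch on these genes once cyclin D kinases have inactivated the retinoblastoma protein. Genes of mitosis are switched on later, by the MuvB complex with B-MYB and FOXM1. Neutrophils divide as bone marrow precursors, and the mature cell is held to be postmitotic, with high levels of CDK inhibitors.

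The libraries held 9598959 to 22615813 counts. Levels are in CPM, the counts of a gene as a share of the library, on library sizes scaled by trimmed means (TMM). The summed level of 20 mature neutrophil genes was 27450 to 30600 CPM in tumour CD71+ libraries, 53440 to 55790 CPM in tumour CD71- libraries, 3552 to 4040 CPM in culture CD71+ libraries and 8393 to 8584 CPM in culture CD71- libraries, and none of the 20 was at 0 in any library. Elane and Ctsg, which encode granule proteases made by dividing neutrophil precursors, had at most 0.453 CPM in any library, and Mpo had at most 2.51 CPM. These belong to a list of 10 early neutrophil and primary granule genes, whose most abundant members were Cd63 and Serpinb1a. Elane, Ctsg and Mpo were not picked by level, and whether dividing precursors were present was not tested. The whole list summed to 185.0 to 195.8 CPM in tumour CD71+ and 184.9 to 189.6 CPM in tumour CD71- libraries. Its culture sums were 110.3 to 126.2 CPM in CD71+ and 103.8 to 138.4 CPM in CD71- libraries. Within each sort fraction 3 of its 8 tested genes were higher and 4 lower in the tumour than in culture. Of all tested genes 60.7% passed there in CD71+ libraries (31.4% higher and 29.3% lower). In CD71- libraries 66.7% passed (30.2% higher and 36.5% lower). Counts from so few genes do not set the list apart. Mitochondrial transcripts took 0.829% and 1.04% of counts in tumour CD71+ libraries, against 0.413% and 0.202% in tumour CD71- libraries. In culture they took 1.45% and 2.17% in CD71+ libraries, against 7.09% and 12% in CD71- libraries. Fewer cells of a type and less RNA per cell cannot be told apart in such samples.

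In the tumour, most of the 55 genes were higher in CD71+ than in CD71- neutrophils. By edgeR's quasi-likelihood test over all 15975 genes at an adjusted p under 0.05, 31 members rose and 6 fell, where 44.1% of all tested genes passed (26.1% higher and 18% lower). Of the 23 mitosis genes 17 rose and 1 fell, with a median log2 fold change of 1.58. Of the 18 replication genes 10 rose and 1 fell, with a median of 0.95. Among the 8 G1 cyclins and kinases 2 rose and 1 fell, among the 4 transcription factors 2 rose and 1 fell, and both CDK inhibitors fell. The median over all tested genes was 0.13. The number of members that rose was 15 without tumour CD71- replicate 2, 17 without tumour CD71- replicate 1 and 20 without tumour CD71+ replicate 2, where the remaining library is assumed to vary like the other groups. Scaling on total counts gave 44 higher and 0 lower members, and scaling on the mature neutrophil genes gave 46 higher and 0 lower. The median over all tested genes moved up as well under both scalings, and the share of all genes that passed under them is not given. Neither count is therefore a result about the members.

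In culture the same comparison gave 21 members that rose and 3 that fell, where 19.2% of all tested genes passed (9.76% higher and 9.46% lower). Again the mitosis genes held most of the rises, with 13 of 23 and none lower (median 1.07), while 3 of 18 replication genes rose and none fell (median 0.51). At an unadjusted p under 0.05 of the same test 7 replication genes were higher and 0 lower. That looser threshold would also add Ccna2, Ccnb1, Aurka and Nusap1 to the mitosis genes that rose. The share of all tested genes at it is not given, so it does not set the replication genes apart. Among G1 cyclins and kinases 4 of 8 rose, Foxm1 rose and E2f2 fell among the transcription factors, and both CDK inhibitors fell. The median over all tested genes was 0.03. The number of members that rose was 10 without culture CD71+ replicate 1, 10 without culture CD71+ replicate 2 and 13 without culture CD71- replicate 1, and the number that fell was 1 without either culture CD71+ library. The replication median was 0.21 without culture CD71- replicate 1 and 0.83 without culture CD71- replicate 2. Total counts gave 31 higher and 1 lower, and scaling on the mature neutrophil genes gave 51 higher and 0 lower. Both scalings also moved the median over all tested genes up, and the share of all genes that passed under them is not given. These counts are therefore no result about the members.

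Over both origins, 16 members rose in both comparisons, of which 11 were mitosis genes and 3 were replication genes (Mcm3, Uhrf1 and Tk1). E2f2, Cdkn1a and Cdkn1b fell in both. How many of all tested genes rose in both is not given, so the count of 16 is not a result about the members. A further 15 members rose past the threshold only in the tumour and 5 only in culture. Mcm10, Kif23 and Ccnd3 fell past it only in the tumour, and 13 members passed in neither. Passing in a single comparison does not show that the effects differ. The heatmap of all members shows these blocks library by library.

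**Figure D1:**
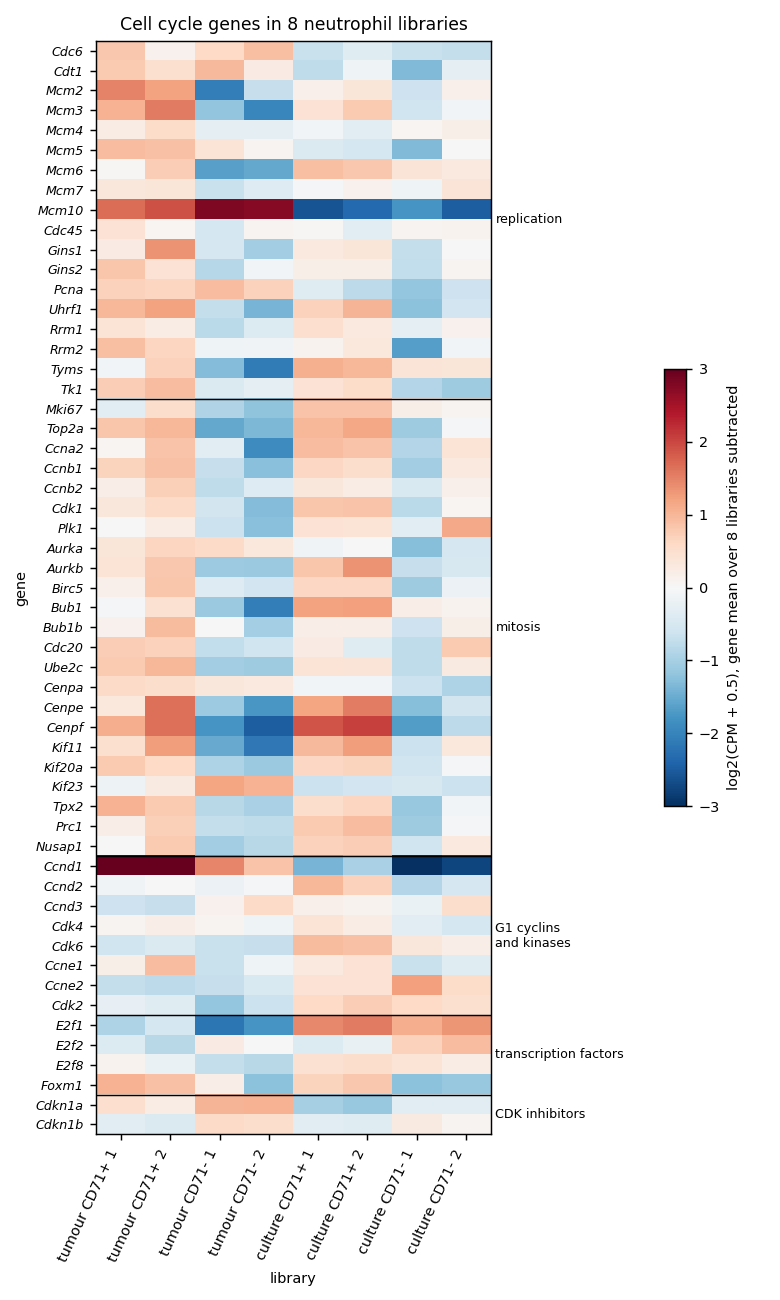
Level of each of the 55 genes (rows, by functional class) in each of the 8 libraries (columns), as log2(CPM + 0.5) with the mean of the gene over the 8 libraries subtracted; red is above and blue below that mean, and colours stop at 3 and -3. Most mitosis genes are red in both CD71+ groups and blue in tumour CD71- libraries, while Mcm10 and Ccnd1 are red in all 4 tumour libraries.

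**Figure D2:**
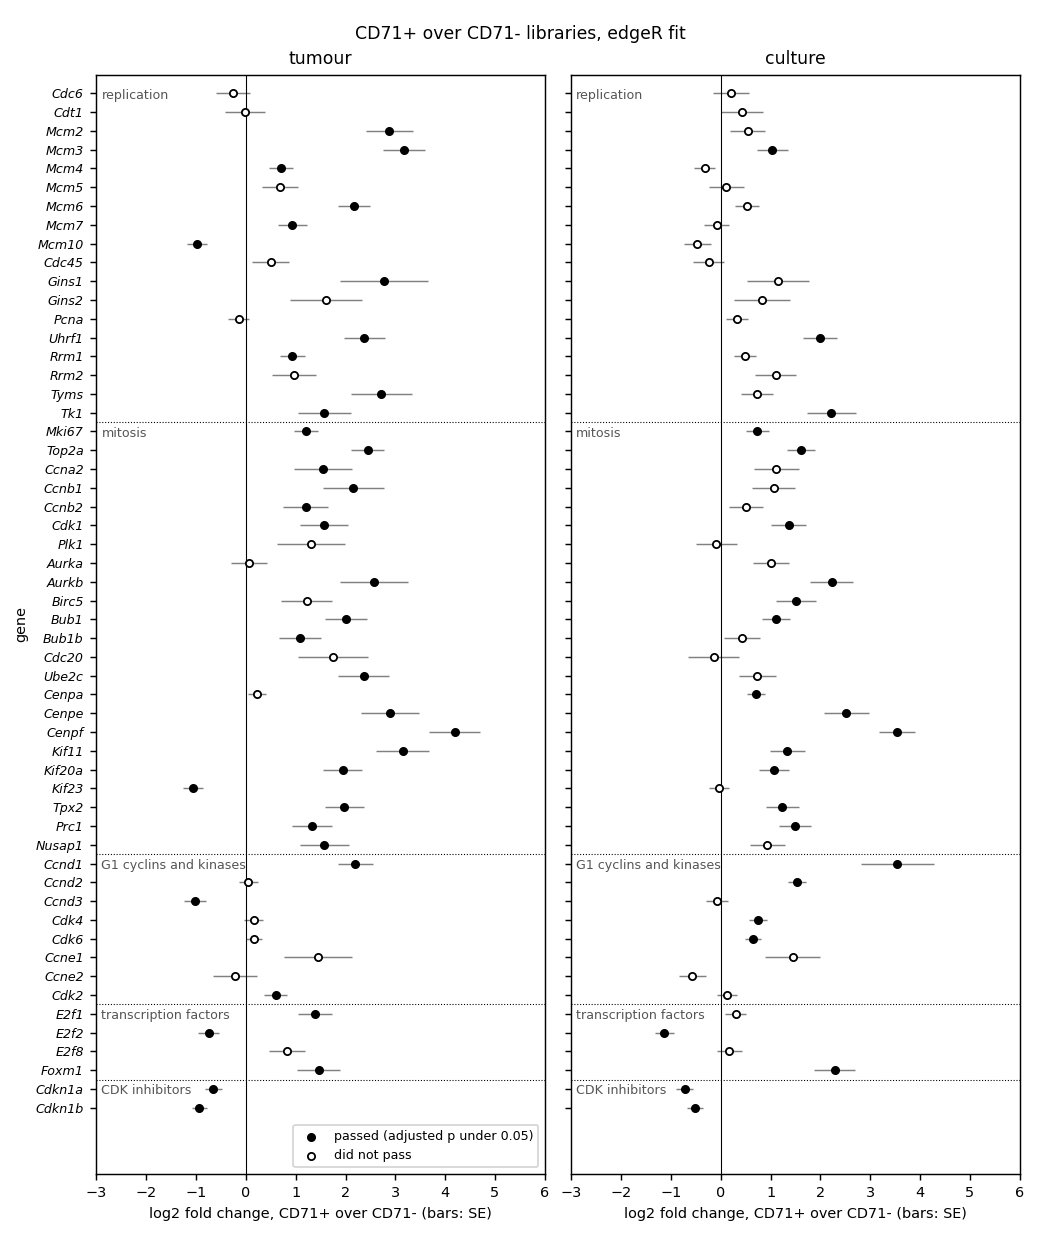
Log2 fold change of CD71+ over CD71- libraries for each gene (rows) in tumour (left panel) and culture (right panel), with bars for the SE of the edgeR fit; filled points passed at an adjusted p under 0.05 and open points did not. In the tumour 31 filled points lie right of 0 and 6 left, and in culture 21 and 3.

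Markers of other cell types moved with the sort in the tumour. Of 20 macrophage and monocyte markers 19 were tested, 16 rose and none fell, and their summed level was 4346 to 4806 CPM in tumour CD71+ libraries and 984.8 to 986.6 CPM in tumour CD71- libraries. Of 10 microglia markers 9 rose, with sums of 1180 to 1675 CPM in tumour CD71+ libraries and 219.5 to 261.3 CPM in tumour CD71- libraries. Apoe, a lipid carrier of macrophages, had 764 and 700.4 CPM in tumour CD71+ libraries, against 68.1 and 79.1 CPM in tumour CD71- libraries. Csf1r, the receptor for macrophage colony-stimulating factor, had 849 and 1032 CPM in tumour CD71+ libraries, against 266 and 237 CPM in tumour CD71- libraries. Both genes were higher in each tumour CD71+ library than in either tumour CD71- library. Sparc, a matrix protein on the microglia list, had 262 and 313 CPM in tumour CD71+ libraries, against 66.0 and 48.9 CPM in tumour CD71- libraries. In culture the macrophage and monocyte sums were 1637 to 1959 CPM in CD71+ libraries and 1095 to 1166 CPM in CD71- libraries, with 12 of 19 tested markers higher and 1 lower, and 5 of 10 microglia markers rose. Mature neutrophil genes went the other way, with 17 of 20 lower in tumour CD71+ libraries and 10 of 20 lower in culture CD71+ libraries. Il1b, an inflammatory cytokine and the most abundant of them, had 7770 and 6947 CPM in tumour CD71+ libraries, against 13470 and 11490 CPM in tumour CD71- libraries, and Cxcl2, a neutrophil chemokine, had 6741 and 5521 CPM in tumour CD71+ libraries, against 10570 and 11020 CPM in tumour CD71- libraries. Among 12 erythroid markers, the 4 globin genes had at most 0.481 CPM in any library, and the summed level was 4.05 to 5.77 CPM in tumour CD71+ libraries and 0.419 to 0.554 CPM in tumour CD71- libraries. Only 2 erythroid markers had enough counts to be tested, and both rose in the tumour (log2 fold changes of 2.58 and 5.05). The part of these other cells in the cell cycle values was not tested.

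Of the remaining marker lists, the 14 glioma and neural genes summed to 131.5 to 241.5 CPM in tumour CD71+ libraries and 134.5 to 145.3 CPM in tumour CD71- libraries, with 6 of 9 tested genes higher. The lymphocyte list summed to 16.2 to 21.7 CPM in tumour CD71+ libraries and 4.71 to 5.03 CPM in tumour CD71- libraries, with 3 of 5 tested genes higher. The dendritic cell list summed to 37.5 to 40.9 CPM in tumour CD71+ libraries and 14.1 to 14.7 CPM in tumour CD71- libraries (5 of 8 tested genes higher), and in culture to 197.0 to 205.2 CPM in CD71+ libraries and 90.7 to 97.1 CPM in CD71- libraries (3 of 8 higher). Of the endothelial and stromal list 5 of 8 tested genes rose and 1 fell in the tumour. No tested gene of the early neutrophil and primary granule list passed in the tumour and 1 of 8 fell in culture (Serpinb1a), and secondary granule genes passed 1 higher and 1 lower of 9 in the tumour and 1 higher and 2 lower in culture. In culture 0 of 9 tested glioma and neural genes, 0 of 5 lymphocyte genes and 0 of 2 erythroid genes passed, and 1 of 8 endothelial and stromal genes rose.

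Among the replication genes, subunits of the MCM2 to MCM7 helicase differed in size of change. Mcm3 had 12.4 and 17.9 CPM in tumour CD71+ libraries, against 2.23 and 1.11 CPM in tumour CD71- libraries. In culture it had 7.99 and 10.2 CPM in culture CD71+ libraries, against 3.61 and 5.44 CPM in culture CD71- libraries. Neither origin showed overlap, and Mcm3 rose in the tumour (log2 fold change 3.18, SE 0.42, adjusted p = 8.61e-05) and in culture (log2 fold change 1.04, SE 0.31, adjusted p = 0.0333). The tumour change was the largest of the 18 replication genes there. Mcm6, another helicase subunit, had 11.3 and 18.6 CPM in tumour CD71+ libraries, against 3.21 and 3.46 CPM in tumour CD71- libraries. Its levels in culture were 21.04 and 19.7 CPM in culture CD71+ libraries, against 14.4 and 13.7 CPM in culture CD71- libraries. Mcm6 rose in the tumour (log2 fold change 2.17, SE 0.32, adjusted p = 2.17e-04) and did not pass in culture, where the log2 fold change was 0.53 ± 0.24 (SE). Mcm4 had 18.1 and 22.96 CPM in tumour CD71+ libraries, against 12.4 and 12.8 CPM in tumour CD71- libraries, and 14.6 and 12.2 CPM in culture CD71+ libraries, against 16.1 and 17.4 CPM in culture CD71- libraries. It passed as higher in the tumour (log2 fold change 0.71, SE 0.24, adjusted p = 0.0270) and was at -0.32 ± 0.22 in culture, with both CD71- libraries above both CD71+ libraries there. The culture call of Mcm3 was lost without the tumour CD71- replicate 1 (1.04), the tumour CD71- replicate 2 (1.04), the culture CD71+ replicate 1 (1.22), the culture CD71+ replicate 2 (0.87), or the culture CD71- replicate 1 (0.76), and with the DESeq2 Wald test (0.97). That of Mcm4 in the tumour was lost without the tumour CD71+ replicate 2 (0.51), the tumour CD71- replicate 1 (0.53), the tumour CD71- replicate 2 (0.61), the culture CD71+ replicate 1 (0.70), or the culture CD71+ replicate 2 (0.70), and with DESeq2 size factors (0.49).

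Mcm10, an initiation factor that helps to activate the loaded helicase and is not one of its ring subunits, went the opposite way. Its level was 60.9 and 72.2 CPM in tumour CD71+ libraries, against 134 and 128 CPM in tumour CD71- libraries. In culture it was far lower, at 2.71 and 3.35 CPM in culture CD71+ libraries, against 5.15 and 2.99 CPM in culture CD71- libraries. Mcm10 fell in the tumour (log2 fold change -0.98, SE 0.20, adjusted p = 0.00194), with no overlap between the libraries, and did not pass in culture (-0.47 ± 0.27). It was the member with the smallest log2 fold change among replication genes in both comparisons. Scaling on total counts (-0.41) or on the mature neutrophil genes (-0.05) ended the tumour call. Pcna, the sliding clamp of the replicative polymerases, was also high in tumour CD71- neutrophils, with 73.6 and 71.2 CPM in tumour CD71+ libraries, against 86.8 and 73.3 CPM in tumour CD71- libraries. The groups overlapped, and Pcna did not pass in the tumour (-0.15 ± 0.21). In culture, Pcna levels were 35.2 and 26.4 CPM in culture CD71+ libraries, against 20.0 and 29.5 CPM in culture CD71- libraries, again overlapping (0.33 ± 0.22). The table also lists pseudogenes of Pcna, Tyms, Ccnb1, Ccnb2 and Ccnd3, with which reads may be shared.

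Of the enzymes of nucleotide supply, Rrm1, Tyms and Tk1 rose in the tumour and Rrm2 did not pass. Rrm1, the large subunit of ribonucleotide reductase, had 24.8 and 21.7 CPM in tumour CD71+ libraries, against 10.5 and 13.9 CPM in tumour CD71- libraries, and rose (log2 fold change 0.94, SE 0.25, adjusted p = 0.00804). Its culture levels were 26.7 and 22.8 CPM in culture CD71+ libraries, against 15.0 and 20.5 CPM in culture CD71- libraries and did not pass (0.49 ± 0.22). Tk1, the thymidine kinase of S phase, had 2.50 and 2.92 CPM in tumour CD71+ libraries, against 0.838 and 0.970 CPM in tumour CD71- libraries. In culture Tk1 had 1.92 and 2.14 CPM in culture CD71+ libraries, against 0.474 and 0.363 CPM in culture CD71- libraries. It rose in the tumour (log2 fold change 1.58, SE 0.53, adjusted p = 0.0265) and in culture (log2 fold change 2.22, SE 0.49, adjusted p = 0.00622), where its change was the largest of the 18. The tumour calls of both did not hold throughout: that of Rrm1 was lost without the tumour CD71- replicate 1 (0.60) and that of Tk1 without the tumour CD71+ replicate 2 (1.45), the tumour CD71- replicate 1 (1.32), the tumour CD71- replicate 2 (1.58), the culture CD71+ replicate 1 (1.57), or the culture CD71+ replicate 2 (1.57), and with the DESeq2 Wald test (1.36). The other replication genes that rose in the tumour were Mcm2, Mcm7, Gins1, Uhrf1 and Tyms, with log2 fold changes of 0.93 to 2.88. Gins1 had only 3 and 1 counts and Tyms 6 and 2 counts in tumour CD71- libraries, so the size of their changes is uncertain. Cdc6, Cdt1, Mcm5, Cdc45, Gins2 and Rrm2 did not pass in the tumour, at -0.26 to 1.61. In culture Uhrf1, a reader of hemimethylated DNA behind the fork, rose as well, and the 10 replication genes not yet named for culture lay between -0.25 and 1.15 without passing. Gins2 shares 67.3% of its exon length with Gse1 on the opposite strand, and the strand setting of the counting was not given, so its counts are uncertain.

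Of the 23 mitosis genes 17 rose in the tumour and 13 in culture. Mki67, a coat protein of mitotic chromosomes used as a marker of proliferation, had 50.9 and 93.0 CPM in tumour CD71+ libraries, against 34.2 and 28.0 CPM in tumour CD71- libraries. Its levels in culture were 117 and 117 CPM in culture CD71+ libraries, against 73.0 and 68.3 CPM in culture CD71- libraries. It rose in the tumour (log2 fold change 1.21, SE 0.25, adjusted p = 0.00169) and in culture (log2 fold change 0.73, SE 0.23, adjusted p = 0.0415). Top2a, the topoisomerase that untangles sister chromatids, had 30.6 and 34.7 CPM in tumour CD71+ libraries, against 5.58 and 6.37 CPM in tumour CD71- libraries, and rose (log2 fold change 2.45, SE 0.33, adjusted p = 1.05e-04). In culture, where it also rose (log2 fold change 1.60, SE 0.28, adjusted p = 0.00159), Top2a had 34.2 and 39.0 CPM in culture CD71+ libraries, against 7.82 and 16.8 CPM in culture CD71- libraries. Cenpf, an outer kinetochore protein, had 10.3 and 15.3 CPM in tumour CD71+ libraries, against 0.977 and 0.416 CPM in tumour CD71- libraries. The culture values were 18.1 and 20.5 CPM in culture CD71+ libraries, against 1.07 and 2.45 CPM in culture CD71- libraries. Its change was the largest of all mitosis members in the tumour (log2 fold change 4.19, SE 0.51, adjusted p = 4.69e-05) and in culture (log2 fold change 3.54, SE 0.36, adjusted p = 3.00e-05), and no CD71- library reached a CD71+ library. The culture call of Mki67 was lost without the tumour CD71- replicate 1 (0.73), the tumour CD71- replicate 2 (0.73), the culture CD71+ replicate 1 (0.74), the culture CD71+ replicate 2 (0.74), the culture CD71- replicate 1 (0.79), or the culture CD71- replicate 2 (0.69), and with DESeq2 size factors (0.68).

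Some mitosis genes did not follow. Kif23, a kinesin of the central spindle needed for cytokinesis, had 23.8 and 32.2 CPM in tumour CD71+ libraries, against 61.3 and 55.0 CPM in tumour CD71- libraries. It fell in the tumour (log2 fold change -1.06, SE 0.20, adjusted p = 0.00113), with no overlap, the smallest value of the 23. In culture its levels of 16.9 and 17.8 CPM in culture CD71+ libraries, against 18.8 and 16.7 CPM in culture CD71- libraries overlapped (-0.04 ± 0.20). Cenpa, the centromeric histone H3 variant, had 49.3 and 47.2 CPM in tumour CD71+ libraries, against 41.9 and 40.6 CPM in tumour CD71- libraries, and did not pass (0.23 ± 0.18). In culture it had 30.9 and 30.8 CPM in culture CD71+ libraries, against 20.9 and 16.9 CPM in culture CD71- libraries and rose (log2 fold change 0.70, SE 0.18, adjusted p = 0.0167), a call lost without the culture CD71+ replicate 1 (0.71), the culture CD71+ replicate 2 (0.72), or the culture CD71- replicate 2 (0.57). Cdc20, the activator of the anaphase-promoting complex, had 3.56 and 3.48 CPM in tumour CD71+ libraries, against 0.977 and 1.11 CPM in tumour CD71- libraries, and 2.41 and 1.42 CPM in culture CD71+ libraries, against 0.948 and 3.72 CPM in culture CD71- libraries. The tumour libraries did not overlap, yet Cdc20 did not pass there (log2 fold change 1.75, SE 0.69, adjusted p = 0.0553), and in culture it had the lowest log2 fold change of the mitosis genes (-0.15 ± 0.50). The tumour call of Kif23 was lost with total counts (-0.49) and with scaling on the mature neutrophil genes (-0.13).

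The remaining mitosis genes that rose in the tumour were Ccna2, Ccnb1, Ccnb2, Cdk1, Aurkb, Bub1, Bub1b, Ube2c, Cenpe, Kif11, Kif20a, Tpx2, Prc1 and Nusap1, with log2 fold changes of 1.09 to 3.15. They include the mitotic kinase CDK1 with its B-type cyclins, the chromosomal passenger kinase Aurora B and the spindle checkpoint kinase BUB1. Aurkb had only 3 counts in each tumour CD71- library, so the size of its change is uncertain. Plk1, Aurka and Birc5 did not pass in the tumour, at 0.07 to 1.31. In culture Cdk1, Aurkb, Birc5, Bub1, Cenpe, Kif11, Kif20a, Tpx2 and Prc1 rose, at 1.07 to 2.52, and Ccna2, Ccnb1, Ccnb2, Plk1, Aurka, Bub1b, Ube2c and Nusap1 did not pass, at -0.09 to 1.11. Exons of Kif20a, Ube2c and Ccna2 overlap a gene on the opposite strand over 29.3%, 22.8% and 12.5% of their length, and their counts are uncertain for that reason.

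Within each library the replication genes were set against the mitosis genes as the ratio of the 2 summed CPM values, which no scaling of the library can change. The ratio was 1.11 and 0.857 in tumour CD71+ libraries, against 1.56 and 1.72 in tumour CD71- libraries. In culture it was 0.473 and 0.431 in CD71+ libraries, against 0.648 and 0.687 in CD71- libraries. For these members the ratio was lower in CD71+ libraries in both origins, by -0.75 on the log2 scale in the tumour and -0.56 in culture, with a pooled SD between replicates of 0.15. The difference was -0.68 and -0.62 without Mcm10 and Kif23, a check chosen after the data were seen. As the mean of log2(CPM + 0.5) over genes, where each gene counts equally, it was -0.39 in the tumour and -0.55 in culture, with a pooled SD of 0.20. The direction in the tumour depended on which genes entered the sums. Over 42 other replication and 50 other mitosis genes, also tried after the data were seen, the ratio was 0.760 and 0.766 in tumour CD71+ libraries, against 0.488 and 0.501 in tumour CD71- libraries, a log2 difference of 0.63. In culture the ratio over these other genes was 1.39 and 1.34 in CD71+ libraries, against 2.05 and 1.72 in CD71- libraries, a log2 difference of -0.46. As means of log2(CPM + 0.5) over the other genes the difference was -0.18 in the tumour and -0.59 in culture. The largest gene of the other mitosis sum in the tumour was Ccnf, with 135.5 and 109.6 CPM in tumour CD71+ libraries, against 278.7 and 219.1 CPM in tumour CD71- libraries.

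The mitosis sum of the members was 265.3 and 364.5 CPM in tumour CD71+ libraries, against 189.6 and 162.3 CPM in tumour CD71- libraries. The replication sums of the members overlapped, at 294.4 and 312.3 CPM in tumour CD71+ libraries, against 296.6 and 278.9 CPM in tumour CD71- libraries. Mcm10 and Pcna made up 45.7% and 45.9% of that sum in tumour CD71+ libraries, against 74.4% and 72.2% in tumour CD71- libraries. The other 16 replication genes summed to 159.9 and 168.9 CPM in tumour CD71+ libraries, against 76.0 and 77.6 CPM in tumour CD71- libraries. Of the mitosis sum, Mki67, Cenpa and Kif23 made up 46.7% and 47.3% in tumour CD71+ libraries, against 72.5% and 76.2% in tumour CD71- libraries. The remaining mitosis members summed to 141.3 and 192.1 CPM in tumour CD71+ libraries, against 52.2 and 38.7 CPM in tumour CD71- libraries.

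**Figure D3:**
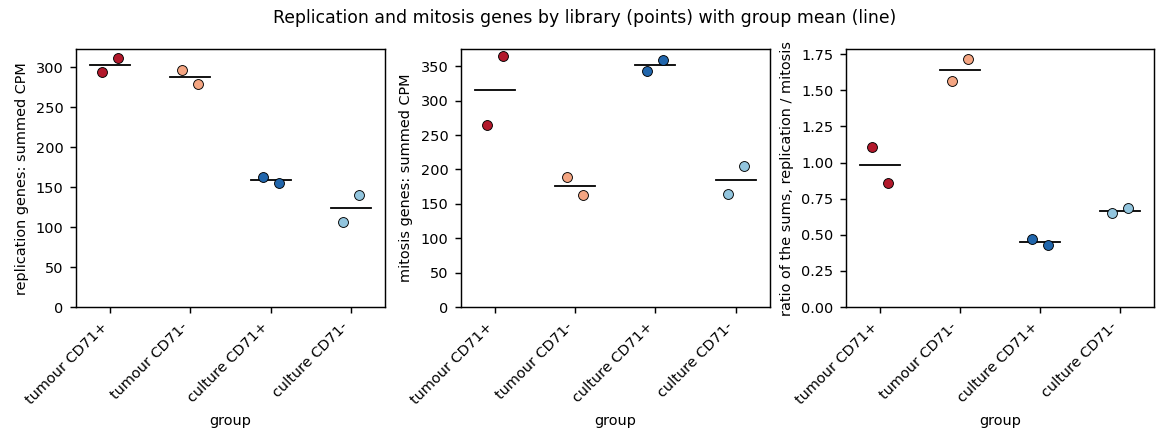
Summed CPM of the 18 replication genes (left), of the 23 mitosis genes (middle) and their ratio (right) in each library; points are libraries and lines are group means. The ratio of both CD71+ libraries lies below that of both CD71- libraries in each origin, and all tumour ratios (0.857 to 1.72) lie above all culture ratios (0.431 to 0.687), while the ratios over other replication and mitosis genes, not plotted, were 0.488 to 0.766 in the tumour and 1.34 to 2.05 in culture.

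The D-type cyclins, which bring growth signals to CDK4 and CDK6, split 3 ways. Ccnd1 had 87.0 and 55.9 CPM in tumour CD71+ libraries, against 18.9 and 12.3 CPM in tumour CD71- libraries, and rose (log2 fold change 2.20, SE 0.35, adjusted p = 4.25e-04). In culture it was scarce, with 2.19 and 3.08 CPM in CD71+ libraries, against 0 and 0.544 CPM in CD71- libraries, where 0 counts allow up to 0.178 CPM and cover counting error only. The culture test passed as well (log2 fold change 3.54, SE 0.74, adjusted p = 0.00570), and the call was lost without the culture CD71- replicate 1 (2.27). Exons of Ccnd1 overlap LTO1 on the opposite strand over 23.4% of their length. Ccnd2 did not pass in the tumour (0.05 ± 0.18), with 102 and 110.3 CPM in tumour CD71+ libraries, against 97.2 and 108 CPM in tumour CD71- libraries. In culture it rose (log2 fold change 1.53, SE 0.18, adjusted p = 1.06e-04), with 219.7 and 179 CPM in culture CD71+ libraries, against 60.2 and 77.8 CPM in culture CD71- libraries. Ccnd3 had 81.7 and 78.2 CPM in tumour CD71+ libraries, against 138 and 188 CPM in tumour CD71- libraries, and fell (log2 fold change -1.02, SE 0.23, adjusted p = 0.00276). In culture its CD71- libraries spread widely, at 141 and 135 CPM in culture CD71+ libraries, against 110.1 and 182 CPM in culture CD71- libraries, and it did not pass (-0.08 ± 0.22). Total counts (-0.47) and scaling on the mature neutrophil genes (-0.11) ended the tumour call of Ccnd3.

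Cdk4 and Cdk6, the kinases bound by D-type cyclins, did not pass in the tumour. Cdk4 had 37.1 and 40.7 CPM in tumour CD71+ libraries, against 37.3 and 32.3 CPM in tumour CD71- libraries (0.16 ± 0.19). Its culture levels were 46.8 and 41.0 CPM in culture CD71+ libraries, against 27.8 and 24.3 CPM in culture CD71- libraries, and it rose (log2 fold change 0.75, SE 0.18, adjusted p = 0.0114). Exons of Cdk4 overlap Tspan31 on the opposite strand over 19.7% of their length, and those of Ccne2 overlap Ints8 over 17.4%. The counts of both genes are uncertain for that reason. Cdk6 had 111 and 125 CPM in tumour CD71+ libraries, against 107 and 105 CPM in tumour CD71- libraries (0.16 ± 0.16). Both culture CD71+ libraries lay above the other 6 libraries for Cdk6, with 327 and 313 CPM in culture CD71+ libraries, against 214 and 195 CPM in culture CD71- libraries, and the difference passed (log2 fold change 0.64, SE 0.16, adjusted p = 0.0108). The culture calls were lost without the culture CD71+ replicate 1 (0.67) for Cdk4 and without the culture CD71+ replicate 1 (0.63), or the culture CD71+ replicate 2 (0.69) for Cdk6. Ccne1 and Ccne2 encode the E-type cyclins that drive entry into S phase through CDK2. Ccne1 was low throughout, with 1.15 and 2.26 CPM in tumour CD71+ libraries, against 0.419 and 0.831 CPM in tumour CD71- libraries, and 1.28 and 1.49 CPM in culture CD71+ libraries, against 0.414 and 0.634 CPM in culture CD71- libraries, and passed in neither comparison (1.44 ± 0.68 in the tumour and 1.44 ± 0.54 in culture). Ccne2 had 2.60 and 2.45 CPM in tumour CD71+ libraries, against 2.65 and 3.19 CPM in tumour CD71- libraries, and 6.31 and 6.32 CPM in culture CD71+ libraries, against 11.5 and 6.98 CPM in culture CD71- libraries. Ccne2 passed in neither comparison, at -0.21 ± 0.44 in the tumour and -0.57 ± 0.28 in culture. Cdk2 had 19.2 and 17.8 CPM in tumour CD71+ libraries, against 10.1 and 14.4 CPM in tumour CD71- libraries, and just passed as higher (log2 fold change 0.60, SE 0.23, adjusted p = 0.0492), a call lost without the tumour CD71+ replicate 1 (0.54), the tumour CD71+ replicate 2 (0.64), the tumour CD71- replicate 1 (0.21), the tumour CD71- replicate 2 (0.77), the culture CD71+ replicate 1 (0.59), or the culture CD71+ replicate 2 (0.59), and with DESeq2 size factors (0.37), with no filter (0.63) or in a fit of the 4 tumour libraries (0.59). In culture it had 34.8 and 38.9 CPM in culture CD71+ libraries, against 35.3 and 32.2 CPM in culture CD71- libraries and did not pass (0.13 ± 0.20).

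Of the 4 transcription factors, E2f1 and Foxm1 rose and E2f2 fell in the tumour, Foxm1 rose and E2f2 fell in culture, and E2f8 passed in neither. E2f1, an activator of replication genes, had 5.29 and 7.15 CPM in tumour CD71+ libraries, against 1.96 and 2.77 CPM in tumour CD71- libraries, and rose (log2 fold change 1.39, SE 0.34, adjusted p = 0.00517). In culture it was high in both sort fractions, at 29.5 and 32.0 CPM in culture CD71+ libraries, against 22.98 and 27.1 CPM in culture CD71- libraries, and did not pass (0.30 ± 0.21). E2f2, also classed as an activator, had 31.7 and 23.4 CPM in tumour CD71+ libraries, against 50.1 and 42.4 CPM in tumour CD71- libraries. Its culture levels were 31.8 and 36.4 CPM in culture CD71+ libraries, against 68.5 and 81.2 CPM in culture CD71- libraries. E2f2 fell in the tumour (log2 fold change -0.75, SE 0.21, adjusted p = 0.0100) and in culture (log2 fold change -1.13, SE 0.20, adjusted p = 0.00136), with no overlap in either. E2f8, a repressor without the DP partner, had 6.06 and 4.80 CPM in tumour CD71+ libraries, against 3.21 and 2.91 CPM in tumour CD71- libraries, and 7.90 and 8.19 CPM in culture CD71+ libraries, against 7.64 and 6.62 CPM in culture CD71- libraries. It passed in neither (0.82 ± 0.35 in the tumour and 0.17 ± 0.25 in culture). Foxm1, an activator of mitosis genes, had 7.98 and 6.96 CPM in tumour CD71+ libraries, against 4.19 and 1.25 CPM in tumour CD71- libraries. In culture it had 6.01 and 6.67 CPM in culture CD71+ libraries, against 1.24 and 1.36 CPM in culture CD71- libraries. Foxm1 rose in both, in the tumour (log2 fold change 1.46, SE 0.43, adjusted p = 0.0137) and in culture (log2 fold change 2.29, SE 0.41, adjusted p = 0.00164). In the tumour the call was lost for E2f1 without the tumour CD71- replicate 1 (1.01), for E2f2 without the tumour CD71+ replicate 2 (-0.55) and with total counts (-0.19), and for Foxm1 without the tumour CD71+ replicate 1 (1.35), or the tumour CD71- replicate 2 (0.72).

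Both CDK inhibitors were lower in CD71+ libraries. Cdkn1a encodes p21, a target of p53 that blocks CDK2 and binds PCNA. It had 1097 and 896 CPM in tumour CD71+ libraries, against 1559 and 1572 CPM in tumour CD71- libraries. The culture levels were lower, at 385 and 351 CPM in culture CD71+ libraries, against 612 and 606 CPM in culture CD71- libraries. Cdkn1a fell in the tumour (log2 fold change -0.65, SE 0.16, adjusted p = 0.00595) and in culture (log2 fold change -0.73, SE 0.16, adjusted p = 0.00746). Cdkn1b, which encodes p27, had 185 and 173 CPM in tumour CD71+ libraries, against 349 and 334 CPM in tumour CD71- libraries, and 186 and 179.7 CPM in culture CD71+ libraries, against 279 and 247 CPM in culture CD71- libraries. It fell in the tumour (log2 fold change -0.93, SE 0.16, adjusted p = 4.75e-04) and in culture (log2 fold change -0.52, SE 0.16, adjusted p = 0.0308). No CD71+ library reached a CD71- library of its origin for either gene. Calls were lost for Cdkn1a in the tumour without the tumour CD71+ replicate 2 (-0.52) and in culture without the culture CD71+ replicate 1 (-0.78), or the culture CD71+ replicate 2 (-0.65), and for Cdkn1b in culture without the tumour CD71+ replicate 1 (-0.52), the tumour CD71+ replicate 2 (-0.50), the culture CD71+ replicate 1 (-0.53), the culture CD71+ replicate 2 (-0.48), or the culture CD71- replicate 1 (-0.41). With total counts neither passed in either origin (-0.10 and -0.37 in the tumour, -0.42 and -0.21 in culture), and scaling on the mature neutrophil genes turned the sign for Cdkn1a in both and for Cdkn1b in culture.

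**Figure D4:**
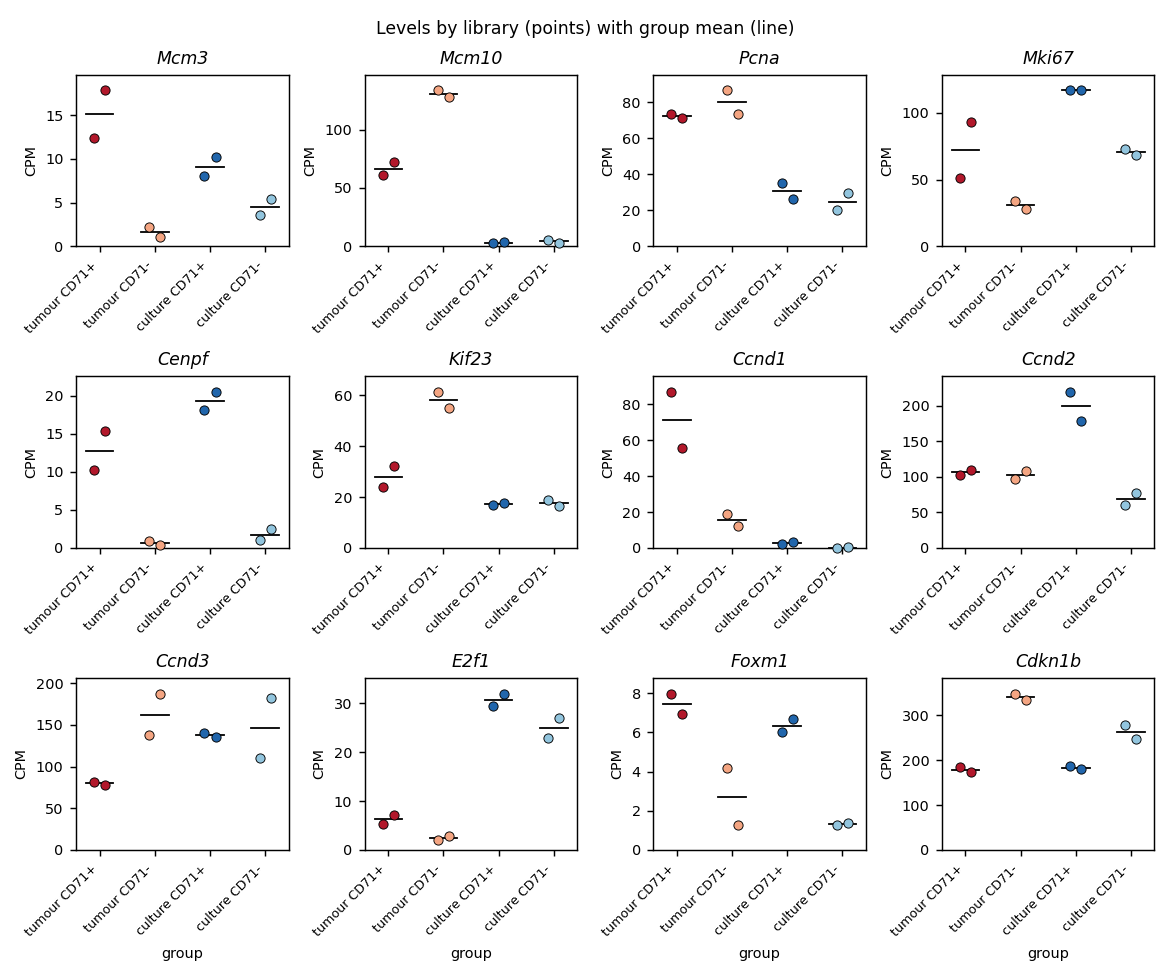
CPM of 12 members in each library (points), with group means (lines), each panel on its own linear axis from 0. Mcm3, Mki67, Cenpf and Foxm1 are higher in CD71+ than in CD71- libraries of both origins, Mcm10, Kif23 and Cdkn1b are highest in tumour CD71- libraries, Ccnd1 is highest in tumour CD71+ libraries, and E2f1 is lower in all 4 tumour libraries than in all 4 culture libraries.

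The CD71 effect was then compared between origins, as the log2 effect in the tumour minus that in culture. Of the 55 members 4 had a larger effect in the tumour and 2 a smaller one, where 15.3% of all tested genes passed (10.5% higher and 4.75% lower). That is 7.27% and 3.64% of the members, so neither count is a result about them. The 4 were the helicase subunits Mcm3 (2.14, SE 0.55, adjusted p = 0.0190), Mcm6 (1.63, SE 0.41, adjusted p = 0.0171), Mcm4 (1.03, SE 0.32, adjusted p = 0.0441) and Mcm2 (2.34, SE 0.61, adjusted p = 0.0212). The other subunits of the ring, Mcm5 (0.57, SE 0.50, adjusted p = 0.479) and Mcm7 (1.01, SE 0.38, adjusted p = 0.0888), did not pass. Mcm2 was named after its values were seen, and had 13.6 and 11.1 CPM in tumour CD71+ libraries, against 0.698 and 2.63 CPM in tumour CD71- libraries, and 5.09 and 5.94 CPM in culture CD71+ libraries, against 2.78 and 5.08 CPM in culture CD71- libraries. The smaller effects were those of Kif23 (-1.02, SE 0.29, adjusted p = 0.0289) and Ccnd2 (-1.48, SE 0.26, adjusted p = 0.00253). The call of Ccnd2 held with each of the 8 libraries left out in turn. The call of Mcm2 was lost without the tumour CD71+ replicate 1 (2.19), the tumour CD71- replicate 1 (1.54), the culture CD71+ replicate 1 (2.21), the culture CD71+ replicate 2 (2.43), or the culture CD71- replicate 2 (1.89). That of Mcm3 was lost without the tumour CD71+ replicate 2 (1.83), the tumour CD71- replicate 1 (2.57), the tumour CD71- replicate 2 (1.61), the culture CD71+ replicate 1 (1.95), the culture CD71+ replicate 2 (2.30), or the culture CD71- replicate 2 (1.84). For Mcm4 it was lost without the tumour CD71+ replicate 2 (0.81), the tumour CD71- replicate 1 (0.86), the tumour CD71- replicate 2 (0.94), the culture CD71+ replicate 1 (1.14), the culture CD71+ replicate 2 (0.88), or the culture CD71- replicate 2 (0.96). The Mcm6 call was lost without the tumour CD71+ replicate 2 (1.20), the tumour CD71- replicate 1 (1.43), the tumour CD71- replicate 2 (1.58), the culture CD71+ replicate 1 (1.66), or the culture CD71+ replicate 2 (1.56). Kif23 lost its call without the tumour CD71+ replicate 1 (-0.83), the tumour CD71- replicate 1 (-1.09), the tumour CD71- replicate 2 (-1.21), the culture CD71+ replicate 1 (-1.07), or the culture CD71+ replicate 2 (-1.01). Each estimate kept its sign over the 8 libraries left out in turn (1.54 to 3.49 for Mcm2, 1.61 to 2.57 for Mcm3, 0.81 to 1.18 for Mcm4, 1.20 to 1.94 for Mcm6 and -1.29 to -0.83 for Kif23). The median difference was 0.66 for replication genes and 0.65 for mitosis genes, beside 0.18 over all tested genes, and was 0.10 and 0.11 without culture CD71- replicate 2. The number of members with a larger effect in the tumour was 1 without replicate 2 of the tumour CD71+, tumour CD71- or culture CD71- group, 0 without tumour CD71- replicate 1 or either culture CD71+ library, and 11 without culture CD71- replicate 1. The number with a smaller effect was 1 without tumour CD71+ replicate 1, either tumour CD71- library or either culture CD71+ library. The call of Mcm4 was also lost with DESeq2 size factors (0.86) and that of Kif23 with total counts (-0.76). Total counts gave 8 higher and 1 lower, and scaling on the mature neutrophil genes 3 and 3, without the share of all genes under these scalings.

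Tumour and culture libraries were also compared within each sort fraction. In CD71+ libraries 12 members were higher and 8 lower in the tumour, where 60.7% of all tested genes passed (31.4% higher and 29.3% lower). Of the 18 replication genes 8 were higher and none lower (median 0.63), and of the 23 mitosis genes 2 were higher and 2 lower (median -0.17), beside a median of -0.08 over all tested genes. In CD71- libraries 11 members were higher and 14 lower, where 66.7% of all tested genes passed (30.2% higher and 36.5% lower), and the medians were -0.23 for replication, -0.82 for mitosis and -0.29 over all tested genes. Of 42 other replication genes 7 were higher and 14 lower in the tumour in CD71+ libraries (median -0.28), and 5 were higher and 24 lower in CD71- libraries (median -1.12). Of 49 other mitosis genes 5 were higher and 3 lower in CD71+ libraries (median 0.13), and 6 were higher and 8 lower in CD71- libraries (median -0.44). Of 25 other RB, E2F and inhibitor genes 8 were higher and 8 lower in CD71+ libraries (median -0.23), and 5 were higher and 10 lower in CD71- libraries (median -0.74). The counts of members rest on the scaling, since total counts gave 5 higher and 25 lower in CD71+ libraries and 5 and 34 in CD71- libraries, and scaling on the mature neutrophil genes gave 2 and 53, and 2 and 52. Both scalings also moved the median over all tested genes down, and the share of all genes that passed under them is not given. The CD71+ count of higher members was 5 without culture CD71+ replicate 1, and the CD71- count of lower members was 25 without culture CD71- replicate 1 and 9 without tumour CD71- replicate 2. The mitosis median in CD71+ libraries was 0.12 without tumour CD71+ replicate 1 and -0.52 without tumour CD71+ replicate 2, and the replication median in CD71- libraries was 0.07 without culture CD71- replicate 2.

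Among single members, Mcm10 and Ccnd1 were higher in the tumour in both sort fractions under each scaling tried. Mcm10 passed in CD71+ (log2 fold change 4.46, SE 0.24, adjusted p = 2.67e-09) and CD71- libraries (log2 fold change 4.96, SE 0.25, adjusted p = 1.11e-09). Ccnd1 passed in CD71+ (log2 fold change 4.76, SE 0.38, adjusted p = 2.74e-07) and in CD71- libraries, where the culture level was at 0 in 1 library (log2 fold change 6.11, SE 0.63, adjusted p = 2.79e-06). E2f1 was lower in the tumour in CD71+ (log2 fold change -2.30, SE 0.24, adjusted p = 1.82e-06) and CD71- libraries (log2 fold change -3.40, SE 0.30, adjusted p = 2.84e-07), and Cdk6 likewise in CD71+ (log2 fold change -1.44, SE 0.16, adjusted p = 2.98e-06) and CD71- libraries (log2 fold change -0.95, SE 0.16, adjusted p = 1.19e-04). Cdk2 was lower too (-0.99 ± 0.21 in CD71+ and -1.46 ± 0.22 in CD71- libraries), and so was Ccne2 (-1.32 ± 0.34 and -1.68 ± 0.36), each passing in both fractions. Cdkn1a was higher in the tumour in both (log2 fold change 1.44, SE 0.17, adjusted p = 4.77e-06 in CD71+ and log2 fold change 1.36, SE 0.17, adjusted p = 6.79e-06 in CD71- libraries), and its sign turned with scaling on the mature neutrophil genes. The ratio of replication to mitosis sums, which scaling leaves as it is, was higher in the tumour by 1.11 on the log2 scale in CD71+ libraries and by 1.30 in CD71- libraries, and by 0.84 and 0.90 without Mcm10 and Kif23. Over the other replication and mitosis genes the ratio was lower in the tumour, by -0.84 in CD71+ and -1.93 in CD71- libraries, and as means of log2(CPM + 0.5) by -0.45 and -0.87.

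Promoters of the classes were searched as well, since E2F factors and the MuvB complex bind known short motifs. Whether these motifs bear on the measured changes was not tested. RefSeq promoters of build GRCm38.p6, from 250 bases before to 50 bases after the start of transcription, were found for 44 of the 55 members, among them 15 replication and 19 mitosis genes. They were searched on both strands for 4 words of the E2F motif (TTCCCGC or TTCGCGC or else TTGCCGC or TTGGCGC) and for 2 words of the cell cycle homology region, or CHR, which MuvB binds (TTTGAA and TTCGAA), and overlapping matches were counted separately. E2F words lay in 9 of 15 replication promoters (60.0%) and 3 of 19 mitosis promoters (15.8%), beside 9.69% of all 27025 promoters of that length and 12.5% of the 16522 promoters of protein-coding genes. CHR words lay in 3 of 15 replication promoters (20.0%) and 15 of 19 mitosis promoters (78.9%), beside 19.4% of all promoters and 17.3% of those of protein-coding genes. Among the other genes of each class, which are no members, E2F words lay in 18 of 34 replication promoters (52.9%) and 12 of 44 mitosis promoters (27.3%), and CHR words in 7 of 34 replication promoters (20.6%) and 32 of 44 mitosis promoters (72.7%). A word is a match of letters, not a site shown to be bound. As a description with no test, 5 of the 9 replication members with an E2F word rose in the tumour (median log2 fold change 0.94), and of the 6 without one 3 rose and 1 fell (median 1.04). In culture 2 of the 9 rose (median 0.49) and 1 of the 6 (median 0.43). Of the 15 mitosis members with a CHR word 10 rose and 1 fell in the tumour (median 1.33), and 3 of the 4 without one rose (median 1.87). In culture 8 of the 15 rose (median 0.73) and 2 of the 4 (median 1.29).

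**Figure D5:**
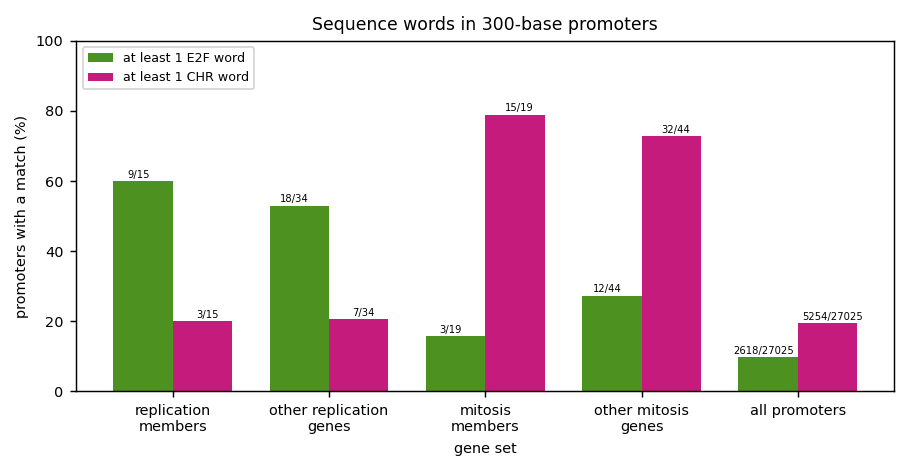
Share of promoters (%) with at least 1 E2F word (green) or CHR word (magenta), for replication members, other replication genes, mitosis members, other mitosis genes and all promoters; the fractions above the bars are promoters with a match over promoters searched. E2F words are more frequent in replication promoters and CHR words in mitosis promoters, each set against all promoters at the right. Among promoters of protein-coding genes, not plotted, 12.5% held an E2F word and 17.3% a CHR word.

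The promoters below show this for 2 replication genes that rose in the tumour and for 3 mitosis genes, of which Top2a and Cenpf rose and Kif23 fell. All are 300 bases on the strand of the gene, with capitals for E2F words (either strand) in Mcm3 and Mcm6 and for CHR words in Top2a, Cenpf and Kif23. Mcm3 lies on the minus strand at chr1:20820263-20820562, Mcm6 on the minus strand at chr1:128359656-128359955, Top2a on the minus strand at chr11:99024140-99024439, Cenpf on the minus strand at chr1:189688037-189688336 and Kif23 on the minus strand at chr9:61946750-61947049. Cenpf and Kif23, the mitosis genes with the largest and the smallest change in the tumour, each hold 1 CHR word, at the same position 3 bases after the start.
Mcm3: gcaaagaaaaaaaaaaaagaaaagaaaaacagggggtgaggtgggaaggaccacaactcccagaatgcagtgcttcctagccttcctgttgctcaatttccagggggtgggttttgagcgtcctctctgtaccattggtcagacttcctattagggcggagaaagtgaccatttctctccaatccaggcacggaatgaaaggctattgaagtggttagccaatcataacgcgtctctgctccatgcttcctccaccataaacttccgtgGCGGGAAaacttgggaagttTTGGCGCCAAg
Mcm6: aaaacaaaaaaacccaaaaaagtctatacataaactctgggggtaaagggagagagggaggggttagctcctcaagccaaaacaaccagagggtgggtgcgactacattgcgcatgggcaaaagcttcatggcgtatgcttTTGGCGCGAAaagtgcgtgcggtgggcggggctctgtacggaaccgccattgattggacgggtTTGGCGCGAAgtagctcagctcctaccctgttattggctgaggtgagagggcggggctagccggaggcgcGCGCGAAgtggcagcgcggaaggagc
Top2a: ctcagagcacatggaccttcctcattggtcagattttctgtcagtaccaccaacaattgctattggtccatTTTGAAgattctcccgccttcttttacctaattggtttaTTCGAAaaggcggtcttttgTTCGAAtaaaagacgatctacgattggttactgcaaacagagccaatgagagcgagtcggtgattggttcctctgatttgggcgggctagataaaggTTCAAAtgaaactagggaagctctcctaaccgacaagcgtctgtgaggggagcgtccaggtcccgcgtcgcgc
Cenpf: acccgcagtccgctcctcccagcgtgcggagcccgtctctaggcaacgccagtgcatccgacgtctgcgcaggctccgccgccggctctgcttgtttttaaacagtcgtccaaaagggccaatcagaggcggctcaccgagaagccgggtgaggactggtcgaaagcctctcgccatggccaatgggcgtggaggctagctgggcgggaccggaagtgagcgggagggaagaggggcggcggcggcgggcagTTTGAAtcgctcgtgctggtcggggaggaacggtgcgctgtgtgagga
Kif23: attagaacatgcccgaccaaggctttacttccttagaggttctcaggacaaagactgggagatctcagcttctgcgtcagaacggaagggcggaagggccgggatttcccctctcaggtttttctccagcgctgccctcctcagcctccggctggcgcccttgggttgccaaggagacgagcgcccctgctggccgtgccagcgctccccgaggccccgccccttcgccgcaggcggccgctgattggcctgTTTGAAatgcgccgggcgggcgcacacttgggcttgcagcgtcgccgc

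Genes of the same pathways outside the 55 were read from 3 lists. Of 42 other replication genes 26 rose and 1 fell in the tumour, and 6 rose and 2 fell in culture, with medians of 1.10 and 0.29 (1.03 in the tumour with Pole2 at its bound). Of 50 other mitosis genes, 49 tested, 26 rose and 4 fell in the tumour, and 25 rose and 2 fell in culture, with medians of 1.62 and 1.51. Of 26 genes of the RB and E2F families and further inhibitors, 25 were tested. In the tumour 8 rose and 5 fell, and in culture 3 rose and 4 fell, with medians of 0.49 and 0.00. That is 32% and 20% in the tumour, where 26.1% of all tested genes rose and 18% fell. In culture it is 12% and 16%, where 9.76% of all tested genes rose and 9.46% fell. The other replication genes that rose in culture were 14.3% of their list. These counts are near the shares of all tested genes and do not set the genes apart.

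Pole, the catalytic subunit of the leading strand polymerase, had 8.18 and 8.38 CPM in tumour CD71+ libraries, against 0.419 and 0.554 CPM in tumour CD71- libraries, and rose (log2 fold change 4.07, SE 0.52, adjusted p = 5.93e-05). In culture it had 3.51 and 4.94 CPM in culture CD71+ libraries, against 0.414 and 0.363 CPM in culture CD71- libraries and rose likewise (log2 fold change 3.39, SE 0.46, adjusted p = 2.67e-04). Its partner subunit Pole2 had 0.769 and 0.565 CPM in tumour CD71+ libraries, against 0 counts in both tumour CD71- libraries, at least 1.6-fold higher when 3 counts per library are allowed there. Prim1, the primase, rose in the tumour (log2 fold change 2.79, SE 0.62, adjusted p = 0.00257) and in culture (log2 fold change 1.53, SE 0.47, adjusted p = 0.0362). Chaf1b, of the histone chaperone CAF-1, fell in the tumour (log2 fold change -0.89, SE 0.22, adjusted p = 0.00488) and rose in culture (log2 fold change 0.97, SE 0.27, adjusted p = 0.0212), with 21.6 and 20.9 CPM in tumour CD71+ libraries, against 38.7 and 40.3 CPM in tumour CD71- libraries, and 6.01 and 5.29 CPM in culture CD71+ libraries, against 2.37 and 3.54 CPM in culture CD71- libraries. Orc4, of the origin recognition complex, fell in culture (log2 fold change -1.24, SE 0.20, adjusted p = 8.46e-04), and so did Rfc2, of the clamp loader (log2 fold change -0.62, SE 0.19, adjusted p = 0.0330). Calls were lost for Prim1 in the tumour without the tumour CD71- replicate 2 (2.17) and in culture without the tumour CD71- replicate 1 (1.54), the tumour CD71- replicate 2 (1.54), the culture CD71+ replicate 1 (1.65), the culture CD71+ replicate 2 (1.45), or the culture CD71- replicate 1 (1.08), for Chaf1b in culture without the culture CD71+ replicate 1 (0.89), the culture CD71+ replicate 2 (1.08), or the culture CD71- replicate 1 (0.70), and for Rfc2 in culture without the tumour CD71- replicate 1 (-0.62), the tumour CD71- replicate 2 (-0.62), the culture CD71+ replicate 1 (-0.65), the culture CD71+ replicate 2 (-0.56), or the culture CD71- replicate 2 (-0.58). Total counts ended those of Chaf1b in the tumour (-0.33) and of Rfc2 in culture (-0.31).

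Kif15, a spindle kinesin, rose in the tumour (log2 fold change 3.05, SE 0.63, adjusted p = 0.00199), and Kif18b, another kinesin, had 3.27 and 2.63 CPM in tumour CD71+ libraries, against 3 counts in total in tumour CD71- libraries. Ndc80, of the outer kinetochore, rose in culture (log2 fold change 2.83, SE 0.53, adjusted p = 0.00210), as did Hmmr, a spindle assembly factor (log2 fold change 2.69, SE 0.37, adjusted p = 2.97e-04). Ccnf, or cyclin F, fell in the tumour (log2 fold change -1.02, SE 0.22, adjusted p = 0.00206), with 136 and 109.6 CPM in tumour CD71+ libraries, against 279 and 219 CPM in tumour CD71- libraries, and had 8.66 and 9.71 CPM in culture CD71+ libraries, against 3.97 and 7.07 CPM in culture CD71- libraries. Cdc25b, a phosphatase that activates CDK1, fell in the tumour (log2 fold change -0.70, SE 0.20, adjusted p = 0.0107) and in culture (log2 fold change -0.76, SE 0.19, adjusted p = 0.0121), and Pttg1, or securin, fell in culture (log2 fold change -0.72, SE 0.22, adjusted p = 0.0354). Cdc25b lost its call in the tumour without the tumour CD71+ replicate 2 (-0.65) and in culture without the culture CD71+ replicate 1 (-0.71), or the culture CD71+ replicate 2 (-0.77), and the culture call of Pttg1 was lost without the tumour CD71- replicate 1 (-0.72), the tumour CD71- replicate 2 (-0.72), the culture CD71+ replicate 1 (-0.76), the culture CD71+ replicate 2 (-0.66), the culture CD71- replicate 1 (-0.72), or the culture CD71- replicate 2 (-0.70). Total counts ended the falls of Ccnf (-0.46) and Cdc25b (-0.14) in the tumour and of Cdc25b (-0.44) and Pttg1 (-0.41) in culture.

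Tfdp2, a DP partner of E2F factors, rose in the tumour (log2 fold change 2.44, SE 0.47, adjusted p = 0.00114) and in culture (log2 fold change 1.44, SE 0.33, adjusted p = 0.00798). E2f6, a repressor, rose in the tumour (log2 fold change 2.67, SE 0.65, adjusted p = 0.00459), and E2f7, the relative of E2f8, rose in culture (log2 fold change 2.77, SE 0.64, adjusted p = 0.00782). Cdkn2d, the CDK4 and CDK6 inhibitor p19, fell in the tumour (log2 fold change -0.97, SE 0.25, adjusted p = 0.00614) and in culture (log2 fold change -0.96, SE 0.24, adjusted p = 0.0123). Ccng2, an unconventional cyclin, fell in the tumour (log2 fold change -0.82, SE 0.17, adjusted p = 0.00167), and Mdm2, the ligase that degrades p53, fell in culture (log2 fold change -0.97, SE 0.17, adjusted p = 0.00159). Lost calls were those of Tfdp2 in culture without the culture CD71+ replicate 1 (1.22), of E2f6 without the tumour CD71- replicate 1 (2.33), or the tumour CD71- replicate 2 (2.77), of E2f7 without the culture CD71+ replicate 2 (2.48), or the culture CD71- replicate 1 (1.63), and of Cdkn2d in the tumour without the tumour CD71+ replicate 2 (-0.71) and in culture without the culture CD71+ replicate 1 (-1.08), the culture CD71+ replicate 2 (-0.81), or the culture CD71- replicate 2 (-0.73). Total counts ended the falls of Cdkn2d in both (-0.41 and -0.64) and of Ccng2 (-0.25).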

How the data were processed

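RNA of 8 libraries had been prepared with a Quick-RNA Microprep kit and a stranded total RNA kit with Ribo-Zero Plus, per the labels' protocols. The submitters' processing notes name FastQC, cutadapt, STAR, featureCounts, DESeq2 and mm10. Versions and the strand setting of featureCounts are not given in the sources used here. Raw values were used: the deposited table holds the authors' raw read counts per gene and library.

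Counts of the 15975 genes kept by filterByExpr, of 55450, were fitted with edgeR 4.0.16 (R 4.3.3, quasi-likelihood test, TMM scaling, 4 group means, 4 residual degrees of freedom), and p-values were adjusted by Benjamini-Hochberg over all of them, two-sided. The threshold was an adjusted p under 0.05. The code was tested on simulated data. A 0 is read as up to 3 counts. Sequences and motif counts come from RefSeq promoters (GRCm38.p6).

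Members and lists were chosen with earlier results of these data known. Per-library values are given for all G1, transcription factor and inhibitor members, for the 5 replication and 5 mitosis members with the highest mean level, for those with the largest and smallest change in each CD71 comparison, for up to 2 rises and 2 falls of each other pathway list (mean of at least 1 CPM), and for the most abundant genes (up to 2) of the macrophage, microglia and mature neutrophil lists. Some marker values are not reported here. Alternatives were other scalings, filters, DESeq2 1.42.0, a replicate block, fits of only the 4 libraries compared and each library left out in turn.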

Additional observations from a re-analysis of the deposited data

Results flagged for a closer look

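For 6 members the CD71 effect differed between tumour and culture by edgeR's quasi-likelihood test of the difference itself, where 15.3% of all tested genes passed, so the count of 6 among 55 is not a result about the members. The effect in the tumour exceeded that in culture by 2.34 on the log2 scale for Mcm2, by 2.14 for Mcm3, by 1.63 for Mcm6 and by 1.03 for Mcm4. The effect in the tumour minus that in culture was -1.02 for Kif23 and -1.48 for Ccnd2. In each case except Ccnd2 the call was lost with at least 5 of the 8 libraries left out in turn.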

How the results depend on the processing

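Total counts moved the median of all genes to 0.69 in the tumour, 0.33 in culture, 0.43 for the difference, -0.76 for tumour over culture in CD71+ and -1.21 in CD71- libraries, and the mature neutrophil genes moved them to 1.04, 1.19, -0.08, -3.02 and -2.96. Total counts gave 44 higher and 0 lower members in the tumour, 31 and 1 in culture, 8 and 1 for the difference, 5 and 25 for tumour over culture in CD71+ and 5 and 34 in CD71- libraries. Mature neutrophil genes gave 46 and 0, 51 and 0, 3 and 3, 2 and 53, and 2 and 52 in that order. The share of all tested genes that passed under these scalings is not given, so the counts are no result about the members. Replication medians with total counts were 1.50, 0.82, 0.91, -0.046 and -1.15, and with mature neutrophil genes 1.85, 1.67, 0.41, -2.29 and -2.89. Mitosis medians were 2.14 in the tumour, -0.84 and -1.75 for tumour over culture with total counts, and 2.49, 2.23, -3.10 and -3.51 with mature neutrophil genes. DESeq2 size factors gave replication medians of 0.73 in the tumour and 0.014 for tumour over culture in CD71- libraries, and the DESeq2 Wald test 0.73 in the tumour and 5 members with a smaller effect there.

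Log2 fold changes turned sign with mature neutrophil genes in the tumour CD71 comparison for Pcna 0.77, E2f2 0.16, Cdkn1a 0.26, Chaf1b 0.020, Cdc25b 0.21, Pttg1 0.24, Ccng2 0.10 and Mdm2 0.25. They did so in the culture CD71 comparison for Mcm4 0.83, Mcm7 1.08, Cdc45 0.91, Plk1 1.07, Kif23 1.13, Ccnd3 1.08, E2f2 0.037, Cdkn1a 0.44, Cdkn1b 0.64, Rfc2 0.54, Cdc25b 0.41, Pttg1 0.44, Cdkn2d 0.20, Ccng2 1.16 and Mdm2 0.20. They did so for tumour over culture in CD71+ libraries for Mcm3 -2.20, Mcm4 -2.30, Pcna -1.69, Tk1 -2.51, Cdc20 -2.05, Cenpa -2.29, Kif23 -2.24, Ccne1 -2.61, Foxm1 -2.70 and Cdkn1a -1.50. They did so for tumour over culture in CD71- libraries for Pcna -0.98, Cenpa -1.57, Kif23 -0.98, Ccnd2 -2.11, Ccnd3 -2.53, Cdk4 -2.27, Ccne1 -2.32, Foxm1 -1.61, Cdkn1a -1.32 and Cdkn1b -2.31. With total counts the sign turned for tumour over culture in CD71+ libraries for Mcm4 -0.051 and Cenpa -0.032 and for tumour over culture in CD71- libraries for Ccnd2 -0.34, Ccnd3 -0.75, Cdk4 -0.52 and Cdkn1b -0.55.

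As class means of log2(CPM + 0.5), the log2 ratio of replication to mitosis was -0.39 in the tumour, 0.16 for the difference, 0.77 for tumour over culture in CD71+ and 0.61 in CD71- libraries. Without Mcm10 and Kif23 it was 0.84 and 0.90 for tumour over culture. With the other replication and mitosis genes in place of the members, chosen after the data were seen, it was 0.63 in the tumour, 1.08 for the difference, -0.84 for tumour over culture in CD71+ and -1.93 in CD71- libraries, so the direction turned in each of these, and as class means of log2(CPM + 0.5) it was -0.18, 0.41, -0.45 and -0.87.

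Leaving out each library in turn gave 15 to 36 higher and 4 to 6 lower in the tumour (medians 0.75 to 1.05 for replication and 1.39 to 1.89 for mitosis), 10 to 26 higher and 1 to 4 lower in culture (medians 0.21 to 0.83 for replication and 0.77 to 1.51 for mitosis), 0 to 11 higher and 1 to 3 lower for the difference between them (medians 0.10 to 0.91 for replication and 0.11 to 1.04 for mitosis), 5 to 13 higher and 6 to 12 lower for tumour over culture in CD71+ libraries (medians 0.49 to 0.65 for replication and -0.52 to 0.12 for mitosis), and 9 to 13 higher and 9 to 25 lower for it in CD71- libraries (medians -0.51 to 0.071 for replication and -1.14 to -0.15 for mitosis). The remaining library of a group was then assumed to vary like the others. The groups did not vary alike between replicates. Chi-square per degree of freedom against counting error was 69.2 in culture CD71- libraries. It was 16.7 in tumour CD71+, 12.6 in tumour CD71- and 19.6 in culture CD71+ libraries. The main fit also shares its estimate of the spread across the 4 groups.

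Replicate numbers are shared by the groups, but same-numbered libraries did not deviate together throughout (correlations of -0.18 to 0.123), and the labels name no shared animal or day. With the replicate block, 27 members were higher and 6 lower in the tumour, 20 and 3 in culture, 3 and 1 for the difference, where Mcm4 and Kif23 lost their calls, 12 and 8 for tumour over culture in CD71+ and 10 and 14 in CD71- libraries. With 2 libraries a group, small changes of genes with few counts could not be resolved.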
